A study of Mus musculus with 8 samples.

Results

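The genes of the hexosamine pathway and of O-GlcNAc cycling were followed in mouse embryonic stem cells after deletion of Ogt, which lies on X and encodes the O-GlcNAc transferase OGT. The set holds 10 of the 21774 protein-coding genes on the annotated chromosomes: Hk2, Gfpt1, Gfpt2, Gnpnat1, Pgm3, Uap1, Nagk, Ogt, Oga and Eogt. They were taken for their place in the pathway, and a gene was scored by the differential regions whose midpoint lay within its RefSeq span (GRCm38.p6, the assembly of mm10) extended by 20 kb at both ends. By this rule 5 of the 12594 regions belonged to the set, 4 of 8578 in the higher list and 1 of 4016 in the lower list.

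All cells carried floxed Ogt alleles (Ogt fl/fl) and were grown on feeder cells, which were removed by sorting. Ogt iKO cells were cultured with 4-hydroxytamoxifen for 6 days and sorted for a YFP reporter, and control cells were cultured without the drug. Each condition gave 2 CMS-IP libraries, in which fragments carrying 5-hydroxymethylcytosine (5hmC) are captured after bisulfite turns that base into cytosine 5-methylenesulphonate, and 2 input libraries. The labels name neither the promoter that drives the recombinase nor a vehicle for the controls, so loss of Ogt, exposure to the drug and sorting for YFP cannot be told apart. They do not say whether replicates were separate cultures. The deposited lists hold positions only, named for higher or lower signal in the knockout, and the depth behind a region, its fold change and the spread between replicates are unknown. No gene expression was measured in these files, so the stem cell identity could not be checked against marker genes, and no value shows the deletion of Ogt itself.

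The hexosamine pathway turns glucose, glutamine, acetyl-CoA and uridine nucleotide into UDP-GlcNAc, the sugar donor for glycosylation. OGT moves GlcNAc from this donor to serine and threonine residues of nuclear and cytoplasmic proteins, and OGA removes it. OGT binds TET dioxygenases, which make 5hmC from 5-methylcytosine, mostly at CG dinucleotides.

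Of the 10 genes, 4 had a region in their window and 6 had none. A higher region lay in the windows of Gfpt2, Pgm3, Oga and Eogt, and the same was true of 26.4% of all protein-coding genes. The single lower region lay in the window of Gfpt2, against 16.1% of protein-coding genes with a lower region. A region of either list was found for 36.2% of protein-coding genes. The 10 genes are longer than most, with a median span of 37605.5 bp against 17219 bp for protein-coding genes. Among the 10186 protein-coding genes within their length range of 7574 to 49430 bp, which are shorter than the set with a median of 19720.5 bp, 23.7% had a higher and 14.5% a lower region. Among the 3750 genes of 22899 to 44434 bp, the interquartile range of the set (median 30994 bp), the shares were 28.1% and 15.9%. The count of 4 of 10 beside these shares was not tested. Inside the span itself, a higher midpoint lay in 3 of the 10 genes, Gfpt2, Oga and Eogt. The same was true of 9.94% of the 10186 genes of 7574 to 49430 bp and of 14.8% of all protein-coding genes. Both groups are shorter than the set, and the part of span length in this difference was not tested. A lower midpoint lay inside 0 of the 10. The shares were 4.99% of the 10186 genes and 7.87% of all protein-coding genes, so that a count of 0 is near the background.

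**Figure D1:**
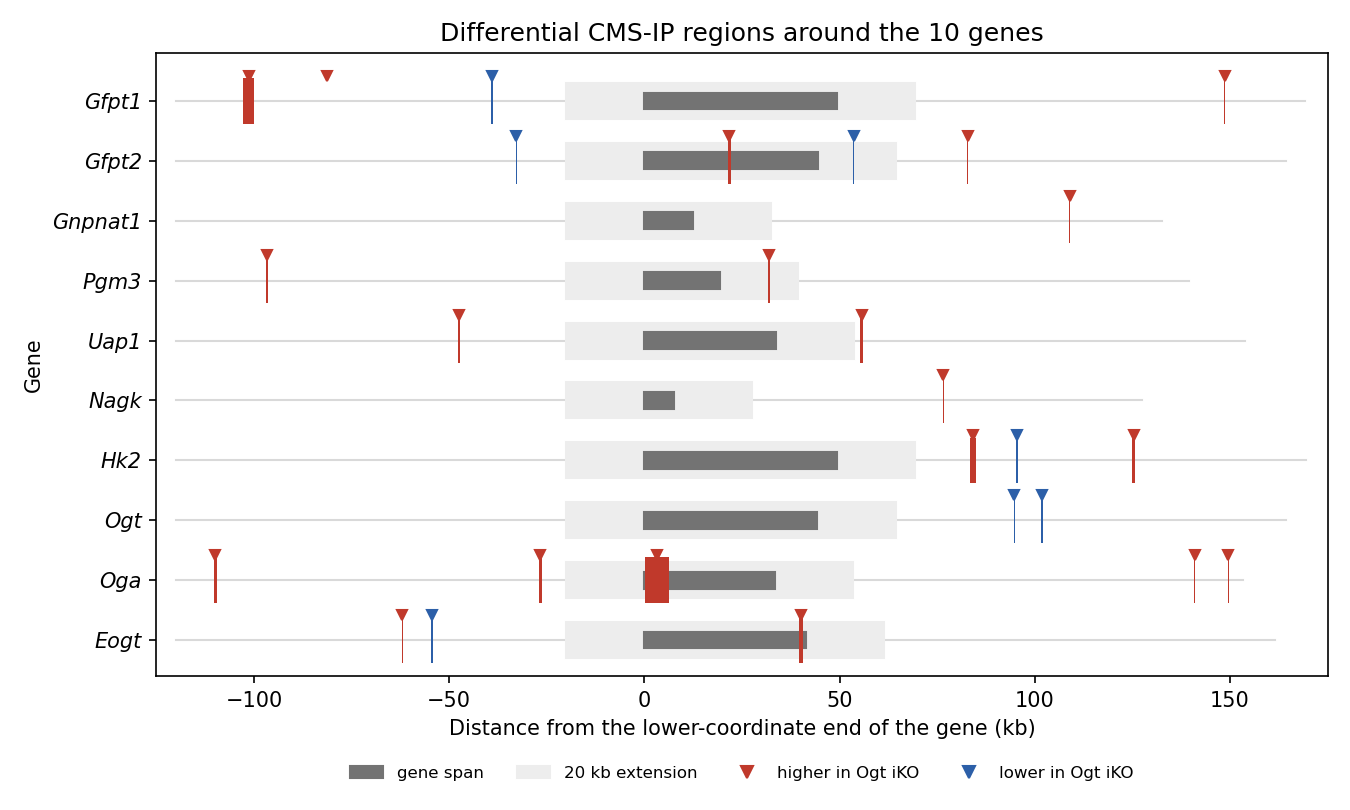
Differential CMS-IP regions within 120 kb of each gene, with distance from the lower-coordinate end of the gene in kb on the x axis and 1 gene per row. Dark boxes are gene spans, pale boxes the 20 kb extensions, bars the regions to scale and triangles their midpoints (red higher, blue lower in Ogt iKO). The bar in Oga spans 6200 bp, and Ogt has only lower regions in view.

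None of the regions overlapped a promoter of the set that was at hand. Eogt, whose region lay close to an end of the gene, could not be checked. RefSeq promoters (GRCm38.p6, 250 bases before to 50 after the start of transcription) were at hand for 8 of the 10 genes, all but Gnpnat1 and Eogt, and Ogt has 2 of them. A higher region overlapped 0 of these 9 promoters and 0.32% of the 32851 promoters of the table, and a lower region 0 of 9 and 0.186%. With so low a background, a count of 0 among 9 says little. The upstream sequences of the enzymes that add and remove O-GlcNAc and of the Gfpt paralogs are shown 5′ to 3′ on the gene's strand, with CG dinucleotides in capitals, because these are the sites where TET enzymes mostly act and because the regions near these genes lay elsewhere. They cover the part of each promoter outside the gene's own span: chr19:45783645-45783803 (minus strand) for Oga, chrX:101639801-101640010 (plus strand) for Ogt, chr6:87042596-87042845 (plus strand) for Gfpt1 and chr11:49793905-49794154 (plus strand) for Gfpt2, which also lies within the lncRNA gene Gm36507.
Oga: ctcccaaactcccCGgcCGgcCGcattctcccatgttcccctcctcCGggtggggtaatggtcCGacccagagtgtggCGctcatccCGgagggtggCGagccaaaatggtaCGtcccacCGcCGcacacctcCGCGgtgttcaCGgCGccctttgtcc
Ogt: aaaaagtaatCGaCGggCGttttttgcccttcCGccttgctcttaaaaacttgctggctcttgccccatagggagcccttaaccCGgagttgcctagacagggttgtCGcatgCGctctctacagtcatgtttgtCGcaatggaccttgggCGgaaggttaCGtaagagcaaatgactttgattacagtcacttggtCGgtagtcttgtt
Gfpt1: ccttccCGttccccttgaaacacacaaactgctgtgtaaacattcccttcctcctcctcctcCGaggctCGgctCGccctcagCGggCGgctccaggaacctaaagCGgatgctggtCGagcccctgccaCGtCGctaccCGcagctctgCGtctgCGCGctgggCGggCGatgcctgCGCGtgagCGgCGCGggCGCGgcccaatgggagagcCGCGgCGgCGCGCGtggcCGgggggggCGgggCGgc
Gfpt2: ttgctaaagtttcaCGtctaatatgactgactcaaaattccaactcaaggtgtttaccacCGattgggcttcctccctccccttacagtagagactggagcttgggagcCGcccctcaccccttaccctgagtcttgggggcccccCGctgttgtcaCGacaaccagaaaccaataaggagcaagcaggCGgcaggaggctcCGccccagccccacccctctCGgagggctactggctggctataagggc

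Over their full 300 bases the promoters of the set held 14 to 38 CG dinucleotides, against a median of 7 (interquartile range 3 to 20) over all promoters of the table. All 9 lay above that median, 5 of them above the interquartile range and 4 within it (the 2 of Ogt and those of Gfpt2 and Nagk). Gfpt1 stood at the top with 38, more than 95.0% of promoters, and its paralog Gfpt2 had 15. Oga had 26, and the 2 Ogt promoters had 20 and 14. The core of the hypoxia response element, ACGTG on either strand, occurred in 5 of the 9 promoters and in 19.6% of all promoters. Those were the promoters of Gfpt1, Gfpt2, Pgm3 and Uap1, each with 1 match, and of Hk2, with 2, while Nagk, Oga and Ogt had none. The motif itself holds a CG, and the part of CG content in these counts was not tested. The E-box CACGTG, a palindrome that contains ACGTG on both strands, occurred in 0 of 9 and in 7.15% of all. A match describes letters in these windows and not a bound site.

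Hk2 encodes hexokinase 2, which makes glucose 6-phosphate for glycolysis and for the hexosamine branch. Its window held no region. The nearest was a higher region of 1615 bp in intergenic sequence (chr6:82808482-82810096), 34027 bp upstream of the gene, followed by a lower region of 552 bp 45811 bp upstream (chr6:82820266-82820817). Both lie on the promoter side of this minus-strand gene, and 45.4% of protein-coding genes had a region closer than that.

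Gfpt1 and Gfpt2 encode the glutamine:fructose-6-phosphate amidotransferases, which catalyse the rate-limiting step of UDP-GlcNAc synthesis. The paralogs differed in these lists. Gfpt2 (chromosome 11, 49794155 to 49838620) had a higher region of 549 bp inside the gene, at chr11:49815679-49816227. Its midpoint lay 21798 bp downstream of the start, at 49.0% of the span, and within Gm36507 as well. A lower region of 272 bp lay at chr11:49847690-49847961, with its midpoint 9205 bp beyond the 3′ end of Gfpt2 and inside Mapk9, which encodes the kinase JNK2. Gfpt2 was thus the single gene of the set whose window held both directions, as did that of 6.35% of protein-coding genes. The higher region was of middling width, wider than 50.5% of its list (median 541.5 bp), and the lower region was wider than 40.3% of its list (median 319.5 bp). Gfpt1 (chromosome 6, 87042846 to 87092207) had no region in its window. Its nearest was a lower region of 540 bp, 38859 bp upstream, and its nearest higher region was 81186 bp upstream and lay in Aak1.

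Gnpnat1 encodes the acetyltransferase that makes GlcNAc 6-phosphate. Of the 10 genes it lay farthest from any region. The nearest was a higher region of 291 bp in Fermt2, 96288 bp beyond its higher-coordinate end, and 69.8% of protein-coding genes had a closer one. The nearest lower region, 420 bp in Gpr137c, was 123298 bp away on the other side.

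Pgm3 encodes the phosphoacetylglucosamine mutase that turns GlcNAc 6-phosphate into GlcNAc 1-phosphate. A higher region of 409 bp (chr9:86584226-86584634) lay in its window but outside the gene, with its midpoint 12552 bp upstream of the span of this minus-strand gene and inside Me1, the gene for cytosolic malic enzyme. It was narrower than the median of its list. The lower region nearest to Pgm3 was 459726 bp away.

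Uap1 encodes the pyrophosphorylase that makes UDP-GlcNAc in the last step of the pathway. It fell just outside the rule: a higher region of 811 bp in Uhmk1 (chr1:170196459-170197269) began 21494 bp upstream of its span, whereas the region by Pgm3 began 12347 bp away. The count of 4 genes with a higher region therefore turns on the 20 kb limit for Pgm3 and Uap1, and does not for Gfpt2, Oga and Eogt, whose regions lay within the gene.

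Nagk encodes N-acetylglucosamine kinase, which returns salvaged GlcNAc to the pathway. It is the shortest gene of the set, at 7574 bp. Its nearest region was a higher one of 220 bp in Zfp638, 68858 bp downstream, and the nearest lower region was 211998 bp upstream.

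**Figure D2:**
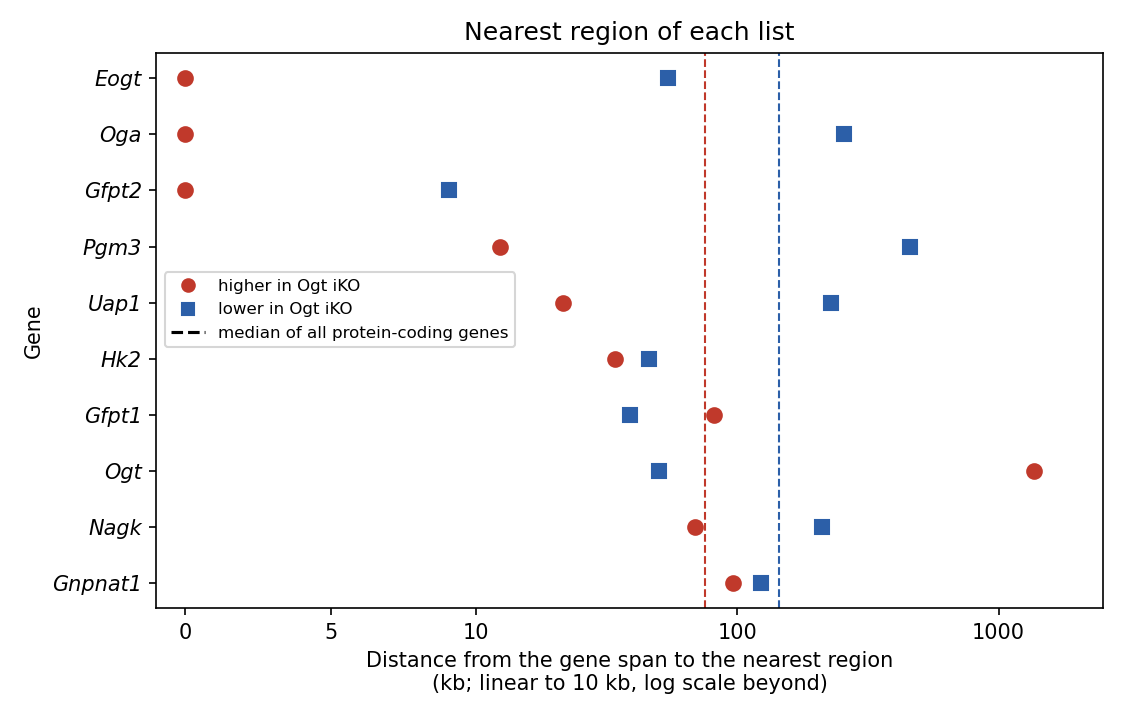
Distance from each gene span to the nearest region of the higher list (red circles) and the lower list (blue squares), in kb on an axis that is linear to 10 kb and logarithmic beyond. Dashed lines are the medians of all protein-coding genes, 75149.5 bp (red) and 145143 bp (blue); Gfpt2, Oga and Eogt sit at 0 for higher regions, and Ogt is the farthest from one.

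Ogt (X, 101640011 to 101684351) had no region in its window. Its nearest region was a lower one of 200 bp, 50314 bp downstream, and the nearest higher region was 1366910 bp downstream, in Gm52428. No other gene of the set lay so far from a higher region. Both lists are sparse on X, which held 73 regions, so its chromosome is the closer comparison. There, 1.77% of 963 protein-coding genes had a higher and 4.78% a lower region in the window, and the median distance to any region was 582430 bp. Only 10.7% of those genes had a region closer than Ogt had. Ogt was thus near a lower region for a gene on X, and at an ordinary distance among protein-coding genes of all chromosomes, 53.9% of which had a closer one.

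Oga (chromosome 19, 45750255 to 45783644) encodes the O-GlcNAcase that reverses the reaction of OGT, and it held the widest region of the set. The higher region at chr19:45750471-45756670 spanned 6200 bp and ranked 4 by width among the 8578 higher regions. Oga is on the minus strand, and the region lay at its 3′ end. It began 216 bp inside the lower-coordinate end of the span and stopped 26974 bp short of the other end, with its midpoint at 90.1% of the span and 29983 bp downstream of the start of transcription in the promoter table. The sequence printed above for Oga therefore lies at the opposite end of the gene, and its promoter is 26833 bp from the region. The annotation used gives no exons, so the parts of the 3′ end that are exon, intron or untranslated were not separated.

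The region covered 18.6% of the Oga span. Among the 3261 protein-coding genes overlapped by a higher region, the median share covered was 1.05% and the median length covered 806 bp. The share was at least as large as in Oga for 42 of these genes, Oga included, or 1.29%, and 44 had at least as many base pairs covered. These values restate the width of a region already known to be broad when the set was chosen. They describe it and were not tested. The same region also fell in the windows of Npm3, a nucleophosmin family gene whose span ends 905 bp from it, and Fgf8, a fibroblast growth factor gene 7529 bp from it. The lists do not tie a region to a gene, and midpoint position alone assigns it to Oga here. The nearest lower region was 256749 bp from Oga, in Ldb1.

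The genes most like Oga in the width of their widest higher region were Samhd1 (6152 bp), Dhx57 (6280 bp), Utrn (6069 bp), and Hmgxb3 with LOC108168367, which share a region of 6016 bp. In Samhd1, Dhx57, Utrn and Hmgxb3 the midpoint lay inside the span, as in Oga. In Utrn the window also held 3 lower regions, whereas Oga and the other genes named had none.

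Eogt encodes the endoplasmic reticulum transferase that adds O-GlcNAc to extracellular domains, such as the EGF repeats of Notch receptors. Its gene (chromosome 6, 97110016 to 97151484) held a higher region of 1025 bp at chr6:97149572-97150596. The region lay close to the higher-coordinate end of the gene, with its edge 888 bp and its midpoint 1400 bp inside that end, and covered 2.47% of the span. The tables used give no strand for Eogt, so this end was not identified as the start or the terminus. The region was wider than 77.2% of its list. The nearest lower region was 54232 bp beyond the other end, in Tafa4. Of the 3 genes with a region inside the span, Gfpt2 had it in the middle, Oga at the 3′ end and Eogt close to an end that was not identified.

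**Figure D3:**
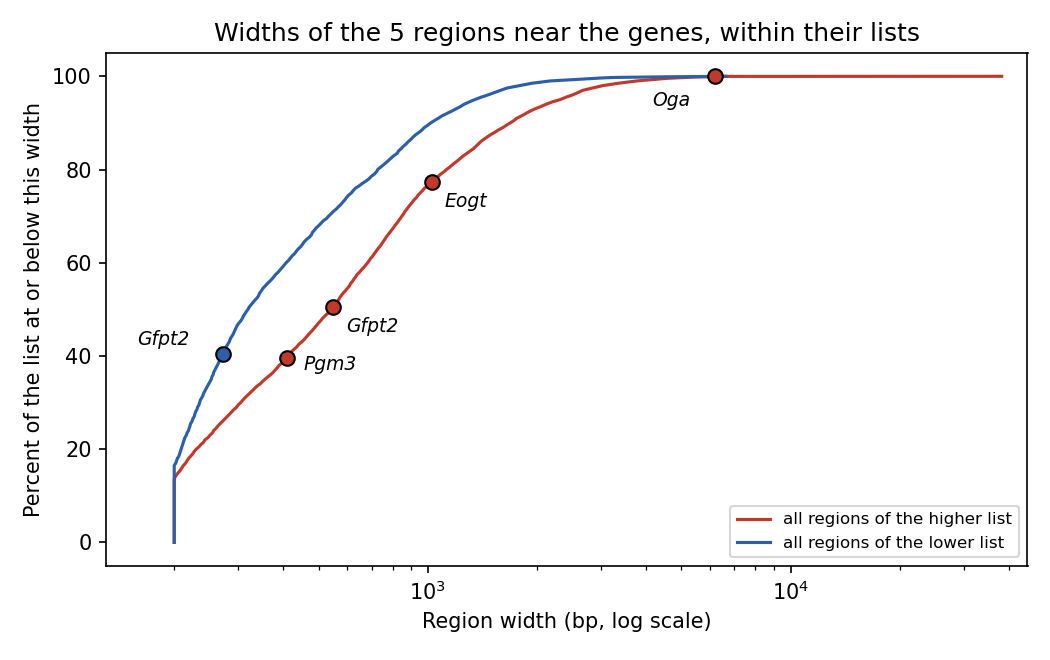
Cumulative distribution of region widths in the higher (red) and lower (blue) list, with width in bp on a log axis and the percent of the list at or below it on the y axis. Circles are the 5 regions in the windows of the set: Oga at 6200 bp is far up the higher list, Eogt at 1025 bp is in its upper part, and the others, 272 to 549 bp, are near the middle.

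Over the set, the median distance to a higher region was 27760.5 bp, against 75149.5 bp over protein-coding genes, and to a lower region 88765 bp, against 145143 bp over the 21521 that have a lower region on their chromosome. The part of the longer spans of the set in these differences was not tested.

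The same windows were then read for 70 further genes in 3 lists around the pathway, of which 28 had a higher and 19 a lower region, 6 had both and 29 had none. Of protein-coding genes, 26.4% had a higher and 16.1% a lower region, 6.35% had both and 36.2% had a region of either list. The median span of the 70 genes was 32680 bp, against 17219 bp for protein-coding genes. Neighbouring genes can share a region, and these windows held 62 different ones, 39 higher and 23 lower. No list was tested.

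Of 17 genes for the entry of glucose and glutamine, 6 had a higher region (35.3%, beside 26.4% of protein-coding genes) and 2 a lower region (11.8%, beside 16.1%). Their median span was 39859 bp, and within the interquartile range of their spans 29.9% and 17.1% of protein-coding genes had one. Hk1, the hexokinase of most tissues, held a higher region of 388 bp inside the gene, which also fell in the window of its neighbour Hkdc1, and another of 709 bp outside it, in Tacr2. Pfkp, a phosphofructokinase gene, held 2 higher regions inside its span, of 866 and 509 bp. Ugp2, for UDP-glucose pyrophosphorylase, held 1 of 1081 bp inside and 1 of 204 bp outside. Hk3 had 2 higher regions outside the gene, of 1347 and 947 bp. Lower regions were found inside Hkdc1 (487 bp) and outside Slc1a5, a glutamine transporter gene (1547 bp). Hk1 thus had a higher region and Hkdc1 a lower region inside the span, Hk3 had higher regions outside it, and the region nearest to Hk2 was 34027 bp away.

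The list around UDP-GlcNAc use and hexosamine breakdown held 36 genes, among them Chst1, Nans and Nanp, which belong to neither process. Of the 36 genes, 14 had a higher region (38.9%, beside 26.4% of protein-coding genes) and 11 a lower region (30.6%, beside 16.1%). Their median span was 20106 bp, and within the interquartile range of their spans the shares of protein-coding genes were 24.0% and 14.5%. That range leaves out longer genes of the list that held regions, such as Mgat5, Ext1 and Galk2, and the part of span length was not tested. The widest region of all 3 lists was a higher one of 3940 bp in the window of Mgat1, the transferase that opens the path to complex N-glycans, and its midpoint lay outside Mgat1 and inside Olfr1393. Alg14, part of the transferase that adds the second GlcNAc of the N-glycan precursor, had 3 higher regions, of 2897 and 616 bp inside and 394 bp outside the gene. Of the 4 nucleotide sugar transporter genes listed, 3 had regions, all of them higher: Slc35d1 (2226 bp, inside), Slc35a3 (783 bp, inside) and Slc35b4 (556 bp inside and 240 bp outside). Of protein-coding genes, 36.2% had a region of either list, and 68.1% of all regions were higher. So few genes do not show a trait of the transporters. Among glycan-building genes, higher regions lay inside Mgat5 (400 and 498 bp) and the hyaluronan synthase genes Has2 (211 bp) and Has3 (770 bp), and outside Chst1 (937 bp). Lower regions lay inside Ext1, a heparan sulfate polymerase gene (1253 and 1829 bp), and Mgat3 (200 bp), and outside Mgat4a (334 bp) and Dpagt1 (405 bp). Pomgnt1 had a higher region (925 bp) and a lower one (840 bp), both outside the gene.

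Genes of hexosamine and sialic acid handling in the same list were split between the directions. Galk2, a GalNAc kinase gene, had 3 higher regions inside (858, 419 and 252 bp) and a lower region outside (356 bp). Higher regions lay outside Gnpda2, for a glucosamine 6-phosphate deaminase (200 bp), and outside the lysosomal gene Hgsnat (1533 bp). Lower regions lay inside Amdhd2, for the GlcNAc 6-phosphate deacetylase (210 bp), and outside Hexa (1077 bp), Nans (405 bp) and Nanp (259 bp). Renbp, on X, had 2 lower regions outside the gene, of 435 and 214 bp. The narrower of them lies inside Hcfc1 and is counted there too.

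Of 17 genes for partners of OGT, 8 had a higher region (47.1%, beside 26.4% of protein-coding genes) and 6 a lower region (35.3%, beside 16.1%). Their median span of 73897 bp was the longest of the 3 lists, and within the interquartile range of their spans 37.3% and 20.8% of protein-coding genes had one. Hcfc1, for the host cell factor that OGT cleaves, held a lower region of 214 bp inside the gene, and its homolog Hcfc2 had a higher region of 535 bp outside. Trak1 held 2 lower regions (423 and 266 bp) and its paralog Trak2 1 higher region (231 bp), all inside, and both encode adaptors of mitochondrial transport. Tet1 had lower regions of 483 bp inside and 976 bp outside, and Tet3 a higher region of 1202 bp inside. Both directions were found in the windows of 3 of the 17 genes, and of 6.35% of protein-coding genes. The part of the longer spans of the 17 genes in this difference was not tested. Kansl1 and Kansl3, named for the non-specific lethal acetyltransferase complex, had both directions within the span. Kansl1 had 2 higher (316 and 294 bp) and 2 lower regions (200 and 347 bp), and Kansl3 had 1 higher (841 bp) and 1 lower (222 bp). Ppp1r12a, a myosin phosphatase subunit gene, also had both inside (418 bp higher and 777 bp lower). Sin3a, for a corepressor scaffold, had higher regions of 218 bp inside and 461 bp outside, and Nup62, for a nuclear pore protein, had 1 of 892 bp outside.

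**Figure D4:**
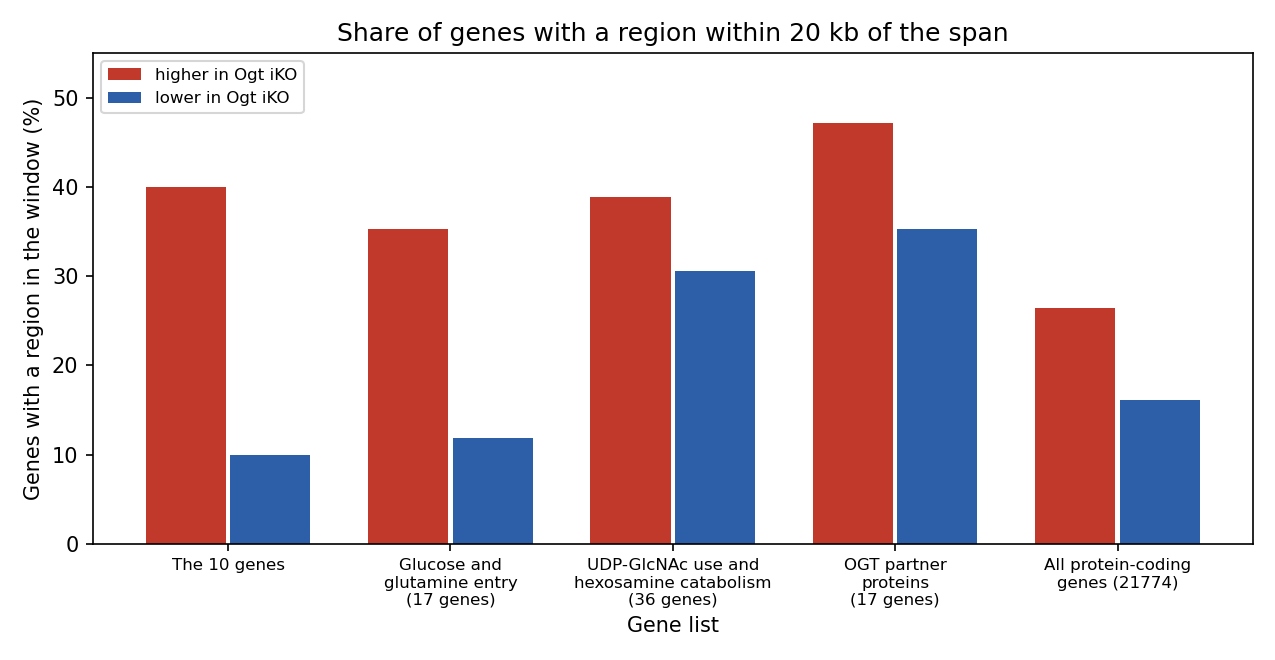
Percent of genes with a higher (red) or lower (blue) region within 20 kb of the span, on the y axis, for the 10 genes, the 3 pathway lists and all 21774 protein-coding genes. Higher regions reach 47.1% of the partner genes, whose spans are the longest, and 26.4% of all protein-coding genes.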

How the data were processed

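The authors deposited 2 lists of regions, named for higher and lower CMS-IP signal in the knockout and for mm10, each line holding a chromosome, a start and an end. The list names have OgtiTKO where the labels have Ogt iKO, and both were taken to be the same cells. Bismark and MACS2 are named per the submitters' processing notes, without version or role. How differences were tested and at what threshold, and how inputs, spike-ins and replicates entered, is not given in the sources used here.

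Printed starts are 1-based (BED start plus 1), and no region is narrower than 200 bp. Gene spans came from RefSeq (GRCm38.p6), of which 49595 on the assembled chromosomes were used and 402 others were not. Strand was known only through the promoter table. Distances run from the gene span to the nearest region edge. All values are counts and positions, with no test. The genes named were all 10 genes of the set, every gene of the 3 lists with a region, the genes at the midpoint of each region in a window of the set, and the 5 protein-coding genes closest to Oga in the width of their own widest higher region, where genes sharing Oga's region were set apart; 2 genes of the lists that the rule selected are not reported here. Genes at a nearest region outside a window, and some at the midpoint of a region of the lists, are also named, for position only. The set, the lists and the rule were chosen with earlier results of these data known. Alternatives were other extensions, any overlap of 1 bp in place of midpoints, wider regions only and merging within 5 kb. Python 3.11.15, numpy 2.4.6, pandas 2.3.3 and matplotlib 3.10.9 were used, and the lookups, tested on simulated regions, matched a direct search for 300 of 300 genes.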

Additional observations from a re-analysis of the deposited data

How the results depend on the processing

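Of 35 recomputed values, 19 stayed within 1.5 times the reported one and 16 moved, nearly all with the extension of the gene spans, which by construction takes in more or fewer regions. With an extension of 0, 1 or 5 kb, 3 genes of the set had a higher and 0 a lower region (14.8 to 17.9% and 7.87 to 10.3% of protein-coding genes). With 50 kb, 6 genes had a higher region and 3 a lower one (40.5% and 25.9%), from 9 higher and 4 lower regions. With 100 kb, 9 genes had a higher and 5 a lower region (57.1% and 39.6%), from 16 higher and 7 lower regions. When the narrower part of each list was dropped, the number of lower regions, and of genes with one, was 0, since the single lower region is narrower. Without an extension, 24 of the 70 genes of the 3 lists had a region, against 41 with 20 kb. Of all protein-coding genes, 36.2% had a region of either list with 20 kb. Without an extension, 14.8% had a higher and 7.87% a lower one, and no share for either list stands beside the 24 genes. The 70 genes are longer, with a median span of 32680 bp against 17219 bp, and the part of span length was not tested. Within 1.5 times stayed the 4 counts of the set and the count over the lists with any overlap, the 4 counts of the set without 200 bp regions, and the widest region, at 6200 bp, with merging within 5 kb. So did the number of genes with a higher region at 0, 1, 5 and 50 kb and the number of higher regions at 0, 1 and 5 kb. With the narrower part of each list dropped, both higher counts were 3 and also stayed within it. No shares of protein-coding genes stand beside the counts with narrower regions dropped or with any overlap, so these counts are a description only. No paired analysis was possible because the lists hold no values per sample, and replicates could not be left out for the same reason. Absence from the lists does not show that 5hmC stayed the same at a gene, because the depth of the libraries is unknown.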

Other observations

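The wider surroundings of the 10 genes differed in number and direction of regions. Within 500 kb of its span, Oga had 12 higher and 4 lower regions, the most of the set, with the region inside the gene among the 12. Ogt had 0 higher and 3 lower, and it was the one gene of the set where lower regions outnumbered higher ones. It is also the one gene of the set on X, where 46 protein-coding genes had a lower and 17 a higher region within 20 kb. Gfpt2 had 5 higher and 4 lower regions, and its paralog Gfpt1 had 7 higher and 1 lower. Gnpnat1, the gene farthest from any region, had 6 higher and 1 lower in this range. For Pgm3 the numbers were 6 and 1, for Uap1 5 and 1, for Nagk 7 and 4, and for Hk2 and Eogt 4 and 2 each. In both lists together, higher regions made up 68.1%. No counts within 500 kb over all protein-coding genes stand beside these numbers, so they are a description only.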
